A study of Homo sapiens with 6 samples.

Results

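The transcripts described are 10 secreted cytokines and chemokines, IL6, LIF, IL11, CXCL8, CXCL1, CCL2, IL1A, IL1B, CSF1 and CSF2, chosen by gene symbol. All 10 symbols matched a row, out of 38900 Ensembl gene IDs. They were read in 6 RNA sequencing libraries of hTERT RPE1, an established human retinal pigment epithelial line immortalised with telomerase. All cultures were held at 100% confluency for 5 days, a step meant to make them quiescent, and all were then moved to fresh medium for 6 hours. The medium of 3 cultures held 100 nM combretastatin A4 (CA4), a small molecule that binds tubulin and takes microtubules apart, and that of the other 3 held 0.1% DMSO, the solvent. The comparison asks how the cytokine transcripts of cells labelled quiescent change when microtubules are lost, and whether the cells had stopped dividing was not tested. The labels do not say that the replicates are separate cultures of separate days, so the p-values measure the spread between these libraries alone, and that spread may be technical.

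Cytokines are small secreted proteins through which cells signal to their neighbours and to the immune system. IL-6, LIF and IL-11 belong to the interleukin 6 family and signal through the shared receptor chain gp130, encoded by IL6ST, to the JAK kinases and STAT3. CXCL8 and CXCL1 are CXC chemokines that attract neutrophils, and CCL2 is a CC chemokine that attracts monocytes. IL-1 alpha and IL-1 beta start inflammation through IL1R1, and CSF1 and CSF2 are growth factors of macrophages and granulocytes. The retinal pigment epithelium is known to secrete IL-6, CXCL8 and CCL2. Many of these genes are switched on by the transcription factors NF-kB and AP-1 acting close to the start site, and their mRNAs are short-lived.

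The start-site sequences of 4 genes with matches to NF-kB or AP-1 motifs are shown. Of these, 3 rose (IL6, CXCL8 and IL11) and 1 did not pass the test (CXCL1). IL1A, which did not pass the test either, also holds AP-1 matches, and its windows are not printed. RefSeq windows on GRCh38.p14 were found for 7 of the 10 genes, with 2 windows for IL1A, and the 250 bases before each start were searched on both strands. Printed are the bases of each window free of GENCODE 29 exons, 5′ to 3′ on the gene's strand: chr7:22726950-22727146 (plus strand) for IL6, chr4:73740319-73740505 (plus strand) for CXCL8, chr19:55370464-55370713 (minus strand) for IL11 and chr4:73869143-73869392 (plus strand) for CXCL1. Capitals mark matches to the NF-kB consensus or to AP-1 (TGANTCA).
IL6: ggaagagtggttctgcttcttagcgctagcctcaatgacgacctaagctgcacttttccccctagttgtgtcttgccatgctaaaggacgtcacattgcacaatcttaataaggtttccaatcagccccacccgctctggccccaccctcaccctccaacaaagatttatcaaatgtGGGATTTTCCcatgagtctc
CXCL8: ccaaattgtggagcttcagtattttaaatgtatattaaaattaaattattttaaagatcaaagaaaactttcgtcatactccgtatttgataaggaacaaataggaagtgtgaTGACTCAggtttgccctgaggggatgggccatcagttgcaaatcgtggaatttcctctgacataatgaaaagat
IL11: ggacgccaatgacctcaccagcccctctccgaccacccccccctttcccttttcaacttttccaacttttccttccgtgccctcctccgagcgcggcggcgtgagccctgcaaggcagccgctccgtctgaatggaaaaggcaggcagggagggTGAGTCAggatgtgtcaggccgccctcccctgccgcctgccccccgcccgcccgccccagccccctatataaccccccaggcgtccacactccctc
CXCL1: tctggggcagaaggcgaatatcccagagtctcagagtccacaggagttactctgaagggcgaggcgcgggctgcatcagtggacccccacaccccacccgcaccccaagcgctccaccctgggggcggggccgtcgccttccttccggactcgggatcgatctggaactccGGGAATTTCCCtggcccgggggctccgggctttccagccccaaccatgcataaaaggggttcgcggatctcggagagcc

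The NF-kB consensus matched 2 of the 8 windows, those of IL6 (73 to 64 bases before the start) and CXCL1 (79 to 69, as 2 overlapping matches), against 9.96% of 35116 windows of the same length. AP-1 matched 4 of 8 windows, those of CXCL8 (137 to 131 bases before the start), IL11 (96 to 90) and both overlapping IL1A windows, against 6.57% of all windows. CXCL8 has no match to the full NF-kB consensus in its window. The longest string shared by the CXCL8 and CXCL1 windows, looked for after they were seen, is GGAATTTCC. It lies 91 to 83 bases before the start of CXCL8 and 78 to 70 before that of CXCL1, and 0.413% of all windows hold it on either strand. C/EBP (TTNNGNAA) matched 4 of 8 windows against 33.2% of all, and TATAAA matched 2 of 8 against 10.7%. The cyclic AMP element (TGACGTCA), TEAD (GGAATG) and the CArG box matched 0 of 8, against 1.65%, 11.9% and 1.16% of all windows. A match is a string of letters in the window and not a measured binding site.

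The values are the deposited normalized counts, the reads of a gene divided by a scaling factor of its library, so that 1 read is worth from 0.935 to 1.12 normalized counts. The libraries held between 19524936 and 22538004 reads. The test was limma's moderated test on log2(normalized count + 1), with 0.05 as the threshold of its adjusted p. It ran on the 13928 genes whose mean reached 10 normalized counts, and 688 passed, of which 413 were higher and 275 lower in CA4 (279 higher and 523 lower when every library was scaled to the same total). The line was checked against fixed marker lists. The epithelial keratins KRT8 and KRT18 and the transcription factors PAX6, OTX2 and MITF were present. TYRP1, TYR and RLBP1 had means under 10 normalized counts in both groups. RPE65, BEST1, PMEL and SERPINF1 had group means from 14.6 to 77.3, and RPE65 was lower in each CA4 library than in DMSO without passing (limma adjusted p = 0.347). Of the 10 markers of the line tested, 3 passed in limma: OTX2 and PAX6 fell by 1.11 and 0.74 on the log2 scale in CA4 (adjusted p = 0.0158 and 0.0483) and TERT rose by 1.53 (adjusted p = 0.0272). DESeq2 called 5, adding MITF and KRT18, whose log2 fold changes of -0.98 and 0.46 did not pass in limma (adjusted p = 0.100 and 0.0849), and edgeR called OTX2 and TERT. Their part in the results was not tested. As the line was immortalised with telomerase, TERT reads from any introduced copy and from the gene itself were not told apart. Of 10 leukocyte markers, 4 were at 0 in all libraries and 7, these 4 among them, were too low to test. The other 3 (CD68, LYZ and CSF1R) did not pass, and the summed levels of the list ran from 848 to 1037 normalized counts in DMSO and from 665 to 844 in CA4. PTPRC, at most 10.6 normalized counts, and LYZ, with means of 16.8 and 28.2 (limma adjusted p = 0.266), were higher in each CA4 library than in DMSO. CD68, the most abundant of the list, was lower in each (log2 fold change -0.34; limma adjusted p = 0.279), and CD14 reached at most 2.23 normalized counts. All 5 endothelial markers were measured, with summed levels from 1138 to 1661 normalized counts in DMSO and from 1472 to 3470 in CA4. The highest sum was that of CA4 replicate 3, where VWF had 1732 normalized counts against 805 and 717 in CA4 replicates 1 and 2. PECAM1 was higher in each CA4 library than in DMSO (log2 fold change 0.74, limma adjusted p = 0.215). CDH5, VWF, KDR and TEK overlapped between the groups. Their log2 fold changes were 0.64, 0.65, -0.097 and -0.049 (adjusted p = 0.374, 0.287, 0.848 and 0.935 in limma). Of these 5, 0 passed limma's test (1 at an unadjusted p under 0.05, 0 in edgeR and 0 in DESeq2), and the part of such cells or transcripts in the results was not tested. In bulk RNA, a change in the share of cells that make a cytokine and a change in RNA per cell cannot be told apart.

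CA4 libraries held more of the mRNA of IL6, LIF and IL11, the interleukin 6 family ligands among the 10 genes, and of CXCL8 and CSF1. Of the 10 genes, 5 passed limma's test, all higher in CA4, where 2.97% of all tested genes were called higher. All 10 log2 fold changes were positive, from 0.39 for CXCL1 to 2.98 for CXCL8. Their median was 1.39, against -0.008 over all tested genes. In 8 genes the 3 CA4 libraries lay entirely above the 3 DMSO libraries, against 14.3% of all tested genes, and the groups overlapped in CXCL1 and IL1A. All 10 had a mean above the filter, but IL1A passed it through its CA4 libraries alone, with a DMSO mean of 8.88.

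**Figure D1:**
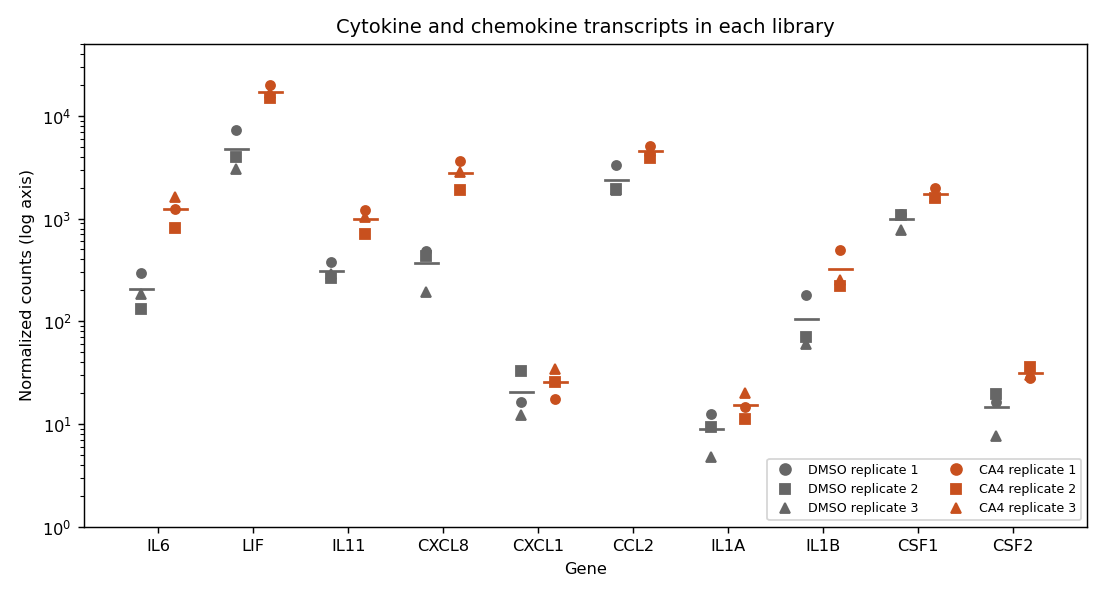
Normalized counts of the 10 transcripts (log axis) in each library, DMSO in grey and CA4 in orange, with the replicate as the marker shape and the group mean as a line. The CA4 points lie above all DMSO points in 8 genes, and the groups overlap in CXCL1 and IL1A.

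LIF, the ligand of the LIF receptor and gp130, took more reads than the other 9 genes together in each CA4 library. It lies on the minus strand at chr22:30240447-30246851 (GRCh38, ENSG00000128342). DMSO replicates 1, 2 and 3 held 7294, 3955 and 3028 normalized counts of it, and CA4 replicates 1, 2 and 3 held 20025, 14775 and 16833. The lowest CA4 library was 2.03 times the highest DMSO library, which was replicate 1. The means were 4759 ± 2244 and 17211 ± 2646 (SD, n = 3 each), and LIF rose by 1.94 on the log2 scale (SE 0.30; adjusted p = 0.0168 in limma). LIF-AS1 and AC004264.1, on the opposite strand in GENCODE 29, share 6.73% of its exon bases, and whether the counting used strand is not given in the sources used here.

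IL6 (chr7:22725884-22732002, plus strand, ENSG00000136244) encodes interleukin 6, the cytokine of the acute-phase response. In replicate order, the DMSO libraries held 297, 131 and 184 normalized counts and the CA4 libraries 1251, 811 and 1618. The groups were wide apart, with the lowest CA4 library 2.73 times the highest DMSO library, although the highest and lowest DMSO libraries themselves differed 2.27-fold. IL6 rose by 2.61 on the log2 scale (SE 0.34; adjusted p = 0.0117 in limma), which was rank 31 among the tested genes. Of its exon bases 20.7% are shared with STEAP1B or AC073072.1 on the opposite strand. STEAP1B had 236, 146 and 132 normalized counts in DMSO and 253, 177 and 158 in CA4, so its range overlapped between the groups.

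IL11 (chr19:55364389-55370463, minus strand, ENSG00000095752) encodes interleukin 11, a gp130 ligand known from fibrosis and platelet formation. It had 374, 266 and 289 normalized counts in DMSO and 1213, 704 and 1038 in CA4, in the order of replicates. Its DMSO libraries were the closest together among IL6, LIF and IL11, and CA4 replicate 2 was the lowest of its group. IL11 rose by 1.65 on the log2 scale (SE 0.22; adjusted p = 0.0126 in limma).

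CXCL8 (chr4:73740506-73743716, plus strand, ENSG00000169429), the neutrophil attractant interleukin 8, had the highest fold change of the 10, rank 19 among the tested genes. It had 487, 429 and 191 normalized counts in DMSO and 3650, 1911 and 2850 in CA4. DMSO replicate 3 stood below the other DMSO libraries, and the lowest CA4 library was still 3.93 times the highest DMSO library. CXCL8 rose by 2.98 on the log2 scale (SE 0.37; adjusted p = 0.0109 in limma). CXCL8 kept its call in each of the 6 fits that left out a library.

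CXCL1 (chr4:73869393-73871242, plus strand, ENSG00000163739), a chemokine of the same gene cluster and another ligand of CXCR2, was low in both groups. It had 16.4, 32.7 and 12.3 normalized counts in DMSO and 17.4, 25.8 and 34.6 in CA4. The groups overlapped, since DMSO replicate 2 lay above the lower pair of CA4 libraries. A log2 fold change of 0.39 was fitted, with a 95% interval from -0.69 to 1.47 (adjusted p = 0.669 in limma). CXCL1 shares 4.81% of its 50-base words with CXCL2 and CXCL3, genes with at most 13.5 normalized counts in any library.

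CCL2 (chr17:34255218-34257203, plus strand, ENSG00000108691), the monocyte attractant, was abundant in both groups. It had 3300, 1937 and 1917 normalized counts in DMSO and 5078, 3855 and 4582 in CA4. The groups did not overlap, but DMSO replicate 1 came within 1.17-fold of the lowest CA4 library. CCL2 had a log2 fold change of 0.96 (SE 0.22), which did not pass (limma adjusted p = 0.0505). Without DMSO replicate 1 it was 1.22 (limma adjusted p = 0.00572), and without any of the other 5 libraries it was 0.82 to 1.06 (limma adjusted p from 0.0712 to 0.168).

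The interleukin 1 genes IL1A (chr2:112773915-112784590) and IL1B (chr2:112829751-112836903) are neighbours on the minus strand, with 45161 bases between them. IL1B had 182, 71.1 and 59.8 normalized counts in DMSO and 496, 220 and 250 in CA4. Replicate 1 was well above replicates 2 and 3 in both groups, and the lowest CA4 library was 1.21 times DMSO replicate 1. IL1B had a log2 fold change of 1.70 (SE 0.46; adjusted p = 0.0808 in limma), and 2.19 without DMSO replicate 1 (limma adjusted p = 0.0206). Without any of the other 5 libraries it was 1.34 to 1.93 (limma adjusted p from 0.105 to 0.231). IL1A had 12.6, 9.35 and 4.75 normalized counts in DMSO and 14.5, 11.2 and 20.1 in CA4. Its groups overlapped and its log2 fold change of 0.77 had a 95% interval from -0.42 to 1.96 (limma adjusted p = 0.417).

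CSF1 (chr1:109910242-109930992, plus strand, ENSG00000184371), the macrophage growth factor, had 1104, 1073 and 778 normalized counts in DMSO and 1996, 1583 and 1638 in CA4. It had the smallest spread within groups of the 10 genes. Its log2 fold change of 0.83 (SE 0.16) passed the test with a limma adjusted p of 0.0321. CSF2 (chr5:132073790-132076170, plus strand, ENSG00000164400), the granulocyte and macrophage growth factor GM-CSF, had 16.4, 19.6 and 7.60 normalized counts in DMSO and 28.0, 35.9 and 30.1 in CA4. The groups did not overlap, but the log2 fold change of 1.14 (SE 0.42) did not pass (limma adjusted p = 0.165).

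**Figure D2:**
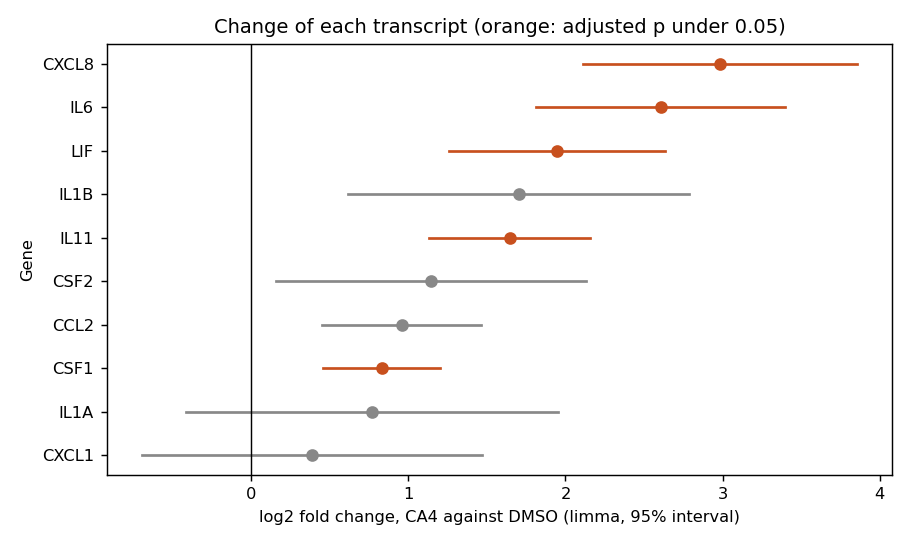
The log2 fold change of each transcript between CA4 and DMSO (x axis, limma, bars for the 95% interval), orange where the adjusted p was under 0.05. CXCL8, IL6, LIF, IL11 and CSF1 are orange, and the intervals of CXCL1 and IL1A include 0.

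The number of calls moved with the libraries kept, over all genes as well as among the 10. Between 1 and 7 of the 10 genes passed when 1 library was left out, in fits that called between 81 and 994 of all tested genes against 688, and CXCL8 was in each of these sets. IL6 lost its call without DMSO replicate 3, with a log2 fold change of 2.57 (limma adjusted p = 0.0629). LIF lost it without DMSO replicate 2 (0.0749), DMSO replicate 3 (0.0627), CA4 replicate 1 (0.0622) or CA4 replicate 3 (0.0646), all limma adjusted p-values, with log2 fold changes from 1.67 to 1.95. For IL11 the limma adjusted p was 0.0577 without DMSO replicate 2, 0.0654 without DMSO replicate 3 and 0.0527 without CA4 replicate 3, with log2 fold changes from 1.54 to 1.60. CSF1 kept its call without DMSO replicate 1 alone (limma adjusted p = 0.0291) and had values from 0.0552 to 0.0999 without any of the other 5, with log2 fold changes from 0.67 to 0.90. The direction of all 10 genes was kept in those 6 fits. On the recovered reads edgeR called the same 5 genes, where it called 2.8% of tested genes higher. DESeq2 called 7, adding CCL2 and IL1B, where it called 6.92% of tested genes higher.

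Levels of different genes were compared per kilobase of exon, from the exon union of GENCODE 29, which can be longer than the transcript a cell makes. In DMSO the order by mean was CCL2, LIF, CSF1, CXCL8, IL11, IL6, IL1B, CSF2, CXCL1 and IL1A, from 1201 ± 399 normalized counts per kilobase for CCL2 to 4.18 ± 1.85 for IL1A (SD, n = 3). CCL2 and LIF, at 1199 ± 565 (SD, n = 3), did not differ beyond their spread. The libraries of neighbours also overlapped from CSF1 through CXCL8 and IL11 to IL6, at 182, 162, 116 and 98.7 normalized counts per kilobase, and from IL1B through CSF2 to CXCL1, at 33.6, 18.5 and 15.8. In CA4 the order began with LIF, at 4336 ± 667, CCL2, at 2268 ± 310, CXCL8, at 1233 ± 383, and IL6, at 593 ± 195 (SD, n = 3 each), and no neighbours among these 4 overlapped. IL6, IL11 (369 ± 96.9) and CSF1 (321 ± 41.3; SD, n = 3) overlapped each with the next. IL1B, CSF2, CXCL1 and IL1A followed, here without overlap between neighbours.

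**Figure D3:**
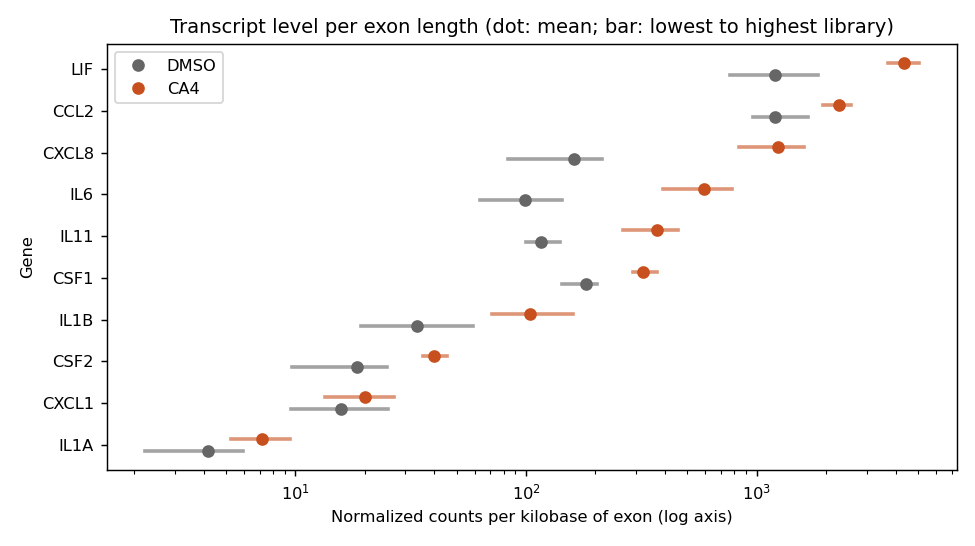
Normalized counts per kilobase of exon (x axis, log scale) for each transcript, with the group mean as a dot and the lowest to highest library as a bar, DMSO in grey and CA4 in orange. LIF and CCL2 lead both groups, and CXCL8 and IL6 stand above CSF1 in CA4 but not in DMSO.

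Summed over the 10 genes, the cytokine transcripts took 642, 387 and 311 of every 1000000 normalized counts in the DMSO libraries, in replicate order, and 1550, 1092 and 1286 in the CA4 libraries. The means were 447 ± 173 and 1309 ± 230 per 1000000 (SD, n = 3 each), and the groups did not overlap. LIF made up 46.8% to 55.8% of that sum in DMSO and 58.3% to 61.7% in CA4.

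The spread between libraries was wide for these genes and followed the library. The pooled standard deviation within groups had a median of 0.51 on the log2 scale over the 10 genes, against 0.20 over all tested genes. CSF1 had the smallest, above that of 58.7% of tested genes, and IL1B the largest, above 93.9%. DMSO replicate 1 was the highest of its group in 8 of the 10 genes, where it was highest in 38.1% of tested genes. CXCL1 and CSF2 were highest in DMSO replicate 2. DMSO replicate 3 was the lowest in 8 of 10, against 31.6% of tested genes, and IL6 and IL11 were lowest in replicate 2. In CA4, replicate 2 was the lowest in 8 of 10, against 32.6% of tested genes, and CXCL1 and CSF2 were lowest in replicate 1. CA4 replicate 1 was the highest in 6 of 10, against 33.6% of tested genes. The coefficient of variation was larger in DMSO than in CA4 for 9 of 10 genes, IL11 being the other, against 53.3% of tested genes. These counts are descriptions, since genes of 1 library are not independent, and low genes such as IL1A, CXCL1 and CSF2 also carry counting error.

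**Figure D4:**
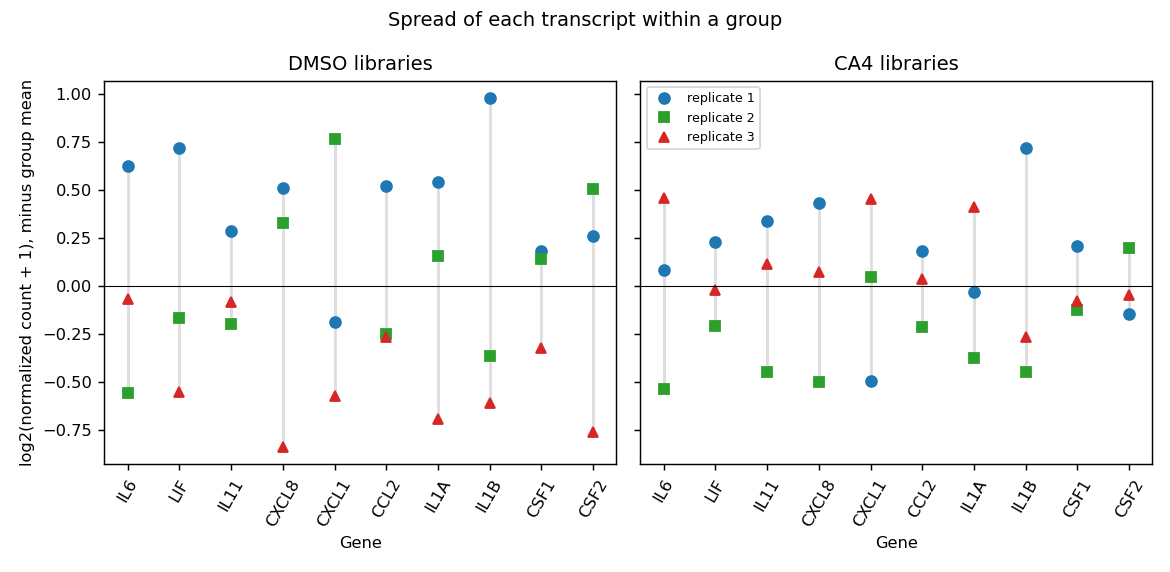
Each library's log2(normalized count + 1) minus the mean of its group (y axis) for each transcript, DMSO on the left and CA4 on the right, with replicates by colour and shape. In DMSO replicate 1 is the top point in 8 genes and replicate 3 the bottom point in 8, and in CA4 replicate 2 is the bottom point in 8.

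Genes most like each of the 5 called transcripts were those with the smallest root mean square difference over the 6 libraries, after each gene was centred on its own mean log2 value. For IL6 these were EPPK1, CD274 and CLDN1, at differences of 0.33, 0.33 and 0.36. For CXCL8 they were NR4A1, HBEGF and ICAM1, at 0.30, 0.47 and 0.52, so few genes followed it closely. LIF was nearest to BIRC3, SPHK1 and TRAF1, at 0.17, 0.18 and 0.22. IL11 was nearest to TRIB3 and SLC7A1, at 0.11 and 0.15, and CSF1 to SRGN, LRRC49 and HIVEP2, at 0.074, 0.080 and 0.085. Among the 10 themselves the closest pairs were CCL2 with CSF1, at 0.23, and LIF with IL1B, at 0.30.

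The other genes of these pathways were taken from lists drawn up, like the 10 genes, with earlier results of these data known. Of 21 other chemokines 4 were abundant enough to test and 5 had no read in any library. Of those 4, 0 passed in limma (0 at an unadjusted p under 0.05, 0 in edgeR and 0 in DESeq2). Over all tested genes 23% had an unadjusted p under 0.05 in limma, and edgeR called 4.62% and DESeq2 12.3% in either direction, against which the counts of this and the next lists stand. CX3CL1, a membrane-bound chemokine, had 135, 74.8 and 47.5 normalized counts in DMSO and 62.8, 92.0 and 126 in CA4, and CXCL16 had a log2 fold change of -0.21. CCL3, a macrophage chemokine too low to test, was singled out after its values were seen. It was at 0 in the 3 DMSO libraries and at 29.96, 16.8 and 3.34 normalized counts in CA4 replicates 1, 2 and 3, and it passed limma's test when no filter was applied.

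Among 24 other cytokines 15 were tested and 0 passed in limma (3 at an unadjusted p under 0.05, 0 in edgeR, 2 in DESeq2). The count was 2 without DMSO replicate 1 or at a mean of at least 50, where 994 and 804 of all genes passed. It was 1 with quantile normalization, with a robust prior or without CA4 replicate 2, where 609, 724 and 503 of all genes passed. The most abundant of the list were CLCF1, another ligand of the gp130 family, and IL32. CLCF1 had 507, 421 and 392 normalized counts in DMSO and 852, 591 and 946 in CA4, without overlap, and its log2 fold change of 0.84 (SE 0.19) had a limma adjusted p of 0.0520. IL32 had a log2 fold change of 0.66 (SE 0.16, adjusted p = 0.0565 in limma). IL15, the other gene at an unadjusted p under 0.05, is named for that reason, after its values were seen. It had a log2 fold change of -0.88 (SE 0.29, adjusted p = 0.129 in limma), and its groups overlapped. OSM, the gp130 ligand that lies next to LIF, was at 0 in all 6 libraries, and TNF had at most 1.11 normalized counts.

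On the receiving side, 18 of 27 receptor and signalling genes were tested and 0 passed in limma (3 at an unadjusted p under 0.05, 0 in edgeR, 2 in DESeq2). The count was 1 without DMSO replicate 1, at a mean of at least 50 or with same-total scaling, where 994, 804 and 802 of all genes passed. IL6ST, the shared gp130 chain, had 7549, 5492 and 5952 normalized counts in DMSO and 8675, 6437 and 6729 in CA4, and the groups overlapped. IL6R, the chain that binds IL-6 itself, had between 7.60 and 14.5 normalized counts in any library. IL6R, the oncostatin M receptor chain OSMR and STAT3 were higher in each CA4 library than in DMSO but did not pass, with log2 fold changes of 0.36, 0.30 and 0.16 (adjusted p = 0.659, 0.208 and 0.269 in limma), while LIFR and IL11RA had log2 fold changes of -0.45 and -0.58 (adjusted p = 0.252 and 0.315 in limma). IL1R1, the interleukin 1 receptor, had 281, 153 and 202 normalized counts in DMSO and 133, 103 and 108 in CA4. All 3 CA4 libraries of IL1R1 lay below the DMSO libraries, with a log2 fold change of -0.84 (SE 0.24) that did not pass (limma adjusted p = 0.0898). The CXCL8 receptor CXCR2 and the CCL2 receptor CCR2 were at 0 in all libraries, and CXCR1 had at most 1.11 normalized counts. CSF1R, the receptor of CSF1, had a log2 fold change of -0.22 (limma adjusted p = 0.714). Of the CSF2 receptor chains, both too low to test, CSF2RA had at most 6.65 normalized counts, and CSF2RB had 7.73, 0.935 and 3.80 in DMSO and 17.4, 13.5 and 15.6 in CA4, without overlap. IL1RAP, the partner chain of IL1R1, and IRAK1, a kinase behind it, had log2 fold changes of 0.023 and 0.22 (adjusted p = 0.972 and 0.221 in limma), and the decoy receptor IL1R2 was at 0 in all libraries. The genes called in DESeq2 were IL1R1 and SOCS3, the feedback inhibitor of gp130 signalling, which is named for that reason after its values were seen. SOCS3 had 197, 321 and 292 normalized counts in DMSO and 142, 156 and 135 in CA4, without overlap, and a log2 fold change of -0.87 (SE 0.21; adjusted p = 0.0553 in limma).

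Of 12 genes that cut or release interleukin 1, 11 were tested and 0 passed in limma (3 at an unadjusted p under 0.05, 0 in edgeR, 1 in DESeq2). The abundant CAPN2 and CAPNS1, subunits of the calpain protease that cuts IL-1 alpha, had log2 fold changes of 0.067 and -0.088. CASP1, the protease that matures IL-1 beta, was the gene called in DESeq2 and is named for that reason, after its values were seen. It had 83.1, 128 and 64.6 normalized counts in DMSO and 49.3, 37.0 and 31.2 in CA4, without overlap. Its log2 fold change was -1.18 (SE 0.32, limma adjusted p = 0.0795). Of the 11 tested genes 4 lay lower in each CA4 library than in DMSO and 0 higher, against 13.4% and 14.3% of all tested genes.

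Of 15 genes that set the lifetime of cytokine mRNAs, 2 passed and both were higher in CA4, where 2.97% of all tested genes were called higher. ARID5A, an RNA-binding protein that stabilises IL6 mRNA, had 300.4, 226 and 193 normalized counts in DMSO and 494, 426 and 525 in CA4, a log2 fold change of 1.02 (SE 0.18; adjusted p = 0.0254 in limma). ZC3H12A, the nuclease Regnase-1 that degrades IL6 mRNA, had 381, 433 and 404 in DMSO and 563, 567 and 566 in CA4, a log2 fold change of 0.48 (SE 0.10; adjusted p = 0.0427 in limma). In both genes all 3 CA4 libraries lay above the DMSO libraries. Without DMSO replicate 2 or 3, or without CA4 replicate 1 or 3, 0 of the 15 passed in limma, against 8 at an unadjusted p under 0.05 with all libraries, 2 calls in edgeR and 4 in DESeq2. The count was 0 in limma without the variance trend too, and 1 with same-total or 75th percentile scaling or with no filter. HNRNPD and KHSRP, decay factors with the highest means among those that did not pass, had log2 fold changes of 0.010 and -0.083.

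Of 21 transcription factors of cytokine promoters and regulators of NF-kB, 9 passed, all higher in CA4, against the same 2.97% of tested genes. The median log2 fold change of the list was 0.67, against -0.008 over all tested genes. NFKB2, an NF-kB subunit, had 1993, 1676 and 1425 normalized counts in DMSO and 4268, 2982 and 3580 in CA4, a log2 fold change of 1.09 (SE 0.16; adjusted p = 0.0166 in limma). NFKBIZ, a nuclear NF-kB cofactor, and TNFAIP3, a ubiquitin-editing enzyme that restrains NF-kB signalling in the cytoplasm, had log2 fold changes of 1.07 and 1.69, and the AP-1 subunit FOSL2 one of 0.88 (adjusted p = 0.0179, 0.0340 and 0.0198 in limma). CEBPG and SRF had log2 fold changes of 0.86 and 0.53 (adjusted p = 0.0192 and 0.0207 in limma). JUN and FOSL1, with the highest means among those that did not pass, had log2 fold changes of 0.53 and 1.27 (adjusted p = 0.140 and 0.116 in limma). The count was 14 without DMSO replicate 1, where 994 of all tested genes passed, and 1 without DMSO replicate 2 or CA4 replicate 1, where 100 and 156 passed. It was 0 in limma without DMSO replicate 3 or CA4 replicate 3, where 81 and 150 passed. With all libraries 17 of the 21 had an unadjusted p under 0.05 in limma, against 23% of all tested genes. Of the 21, edgeR called 8 and DESeq2 11, against 4.62% and 12.3% of all. Without the variance trend 0 of the 21 passed in limma, where 103 of all tested genes passed.

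**Figure D5:**
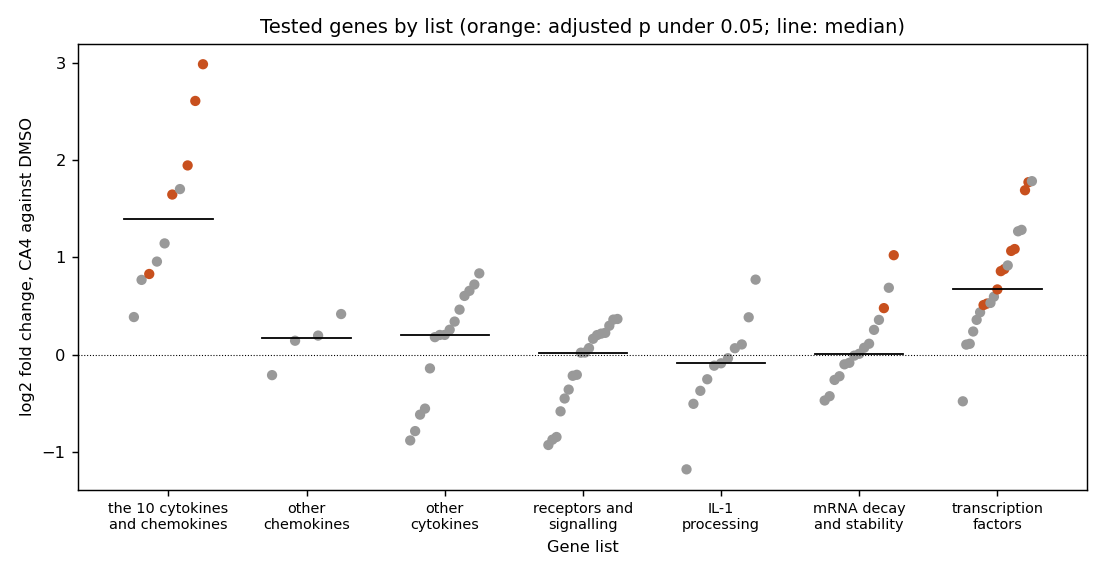
The log2 fold change (y axis) of each tested gene by list, with the median as a line and orange for an adjusted p under 0.05. The 10 cytokines and chemokines have a median of 1.39 and 5 orange points, and the other chemokines, other cytokines, receptors and interleukin 1 processing genes have 0.

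Genes beside the 10 on the chromosome were also read, as the 2 nearest protein-coding genes on each side, a set added after the values were seen. CXCL6, the next gene of the table after CXCL8, had between 0.966 and 7.85 normalized counts in any library. IL3, next to CSF2, and PF4 and PF4V1, beside CXCL1, were at 0 in all libraries. CCL7, which lies 13018 bases from CCL2, had at most 5.57 normalized counts. TOMM7, beside IL6, had 878, 892 and 894 normalized counts in DMSO and 867, 867 and 936 in CA4. RAPGEF5, also beside IL6, had 23.2, 18.7 and 17.1 in DMSO and 101, 46.0 and 18.9 in CA4, so its higher level was in CA4 replicates 1 and 2. Of the 34 neighbours outside the 10 genes, 8 were at 0 in all libraries. Of the rest, 3 (FAM126A, CCL11 and ASIC2) lay higher in each CA4 library than in DMSO and 2 (MTMR3 and RASSF6) lower. Among tested genes 14.3% lay higher and 13.4% lower, but the neighbours include genes too low to test, so the sets are unlike. CCL11 and ASIC2 had at most 4.49 and 1.12 normalized counts, and RASSF6 at most 8.41. FAM126A, beside IL6, had 4536, 3297 and 4448 in DMSO and 4882, 4937 and 4878 in CA4. CKAP2L, a mitotic spindle protein gene beside IL1A, had 620, 280 and 201 normalized counts in DMSO and 473, 289 and 159 in CA4, with replicate 1 the highest of both groups, as for IL1B.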

How the data were processed

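Per the labels' protocols, RNA was extracted with a column kit and a sequencing service made polyA-selected libraries. The submitters' processing notes name Trim Galore 0.6.6, FastQC 0.12.1, Salmon 1.8.0, STAR 2.7.9a, DESeq2 1.44.0 and GRCh38, without their roles. Annotation release and use of strand are not given in the sources used here. The deposited signal is normalized counts, gene reads that the authors divided by 1 factor per library. All 100% of values in each column were whole multiples of 1 step (tolerance 0.01), which gave the recovered reads. These may be rounded estimates.

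Genes with a mean of at least 10 were tested with limma 3.58.1 in R 4.3.3 on log2(normalized count + 1), pseudocount 1, with treatment as the sole term and a variance trend. P-values are two-sided, with Benjamini-Hochberg adjustment over 13928 genes at 0.05. Fold changes on this scale understate low genes. Alternatives used edgeR 4.0.16 and DESeq2 1.42.0 on recovered reads. The scripts were tested on simulated data. Intervals cover 95%. A value of 0 allows up to 3 reads, for counting error only.

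The 10 genes and all lists were chosen with earlier results of these data known. Named are the 10, list genes past the threshold (up to 6 a list), 2 abundant others a list, receptors of the 10 where measured or at 0, and the 3 most alike genes with a mean of at least 50. Others are marked, and 1 gene under this rule is not reported here. Coordinates and overlaps come from GENCODE 29 (GRCh38). Shared 50-base words were counted over its transcripts.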

Additional observations from a re-analysis of the deposited data

How the results depend on the processing

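All log2 fold changes of the 10 genes stayed positive in each alternative fit that gave one. CXCL1, IL1A and CSF2 had no value at a mean of at least 50, nor IL1A an adjusted p in DESeq2. Across the alternatives the median of the 10, 1.39, moved by less than the spread between libraries. Scaling to the same total lowered the median of all tested genes by 0.10, from -0.008 to -0.109, and left the same 5 calls. Without the variance trend 103 of the tested genes passed in limma against 688, and 0 of the 10 against 5. In that fit 8 of the 10 had an unadjusted p under 0.05, as with the trend, where 23% of all tested genes did (limma). The share of all tested genes under 0.05 without the trend was not counted. Of the 10, edgeR called 5 and DESeq2 7, where they called 4.62% and 12.3% of all tested genes in either direction. DESeq2 on recovered reads called 1613 genes. Leaving out 1 library gave from 81 to 994 genes and from 1 to 7 of the 10, with a median of 1.11 to 1.53. CCL2 passed with a pseudocount of 5 (limma adjusted p = 0.0487), a mean of at least 50 (0.0446) and a robust prior (0.0493), within a range of 0.00067 to 0.168 over all alternatives.

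The replicate number as a block called 2397 genes, 7 of the 10 among them, with CCL2 and IL1B added (adjusted p = 0.00422 and 0.00231 in limma). In the other lists it called 0 chemokines, 4 cytokines, 6 receptor and signalling genes and 2 genes that cut or release interleukin 1. It also called 6 genes that set the lifetime of cytokine mRNAs and 15 transcription factors and regulators of NF-kB. Deviations of same-numbered libraries correlated at 0.202, 0.159 and 0.0588, not all above 0.1, and the labels name no shared culture or day, so the libraries were not treated as paired. CXCL1, IL1A and CSF2 had few reads and did not pass, and the part of depth and of spread between libraries in this was not tested.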
